A study of Mus musculus with 8 samples.

Results

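The genes described here are the neurofilament subunit genes Nefl, Nefm and Nefh together with Fev and Btbd17. They are 5 of the 55421 genes in the deposited count table and were taken by symbol. They had been brought together as neuron-type genes seen to fall strongly with NRRA in cultures labelled Spo11KO, so they were chosen by their counts in the Spo11KO NRRA and Veh libraries, and the values there are a description without a test. By that choice Nefl, Nefm, Fev and Btbd17 were lower with NRRA in Spo11KO. The counts went against the description for Nefh, which was higher with NRRA in both genotypes, and in cultures labelled Stra8KO Btbd17 rose as well. All 5 genes passed the filter on low counts that left 20588 genes for testing.

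RNA was measured in bulk cultures of mouse spermatogonia, grown from neonatal testes of a C57BL/6XDBA/2 background on irradiated mouse embryonic fibroblast feeder cells with N2, bFGF and GDNF. NRRA is a nutrient restriction medium combined with retinoic acid, and Veh is the control in complete culture medium. The nutrient restriction medium is the complete medium diluted with a balanced salt solution. N2, bFGF and GDNF were therefore lower with NRRA than with Veh. NRRA effects thus compare retinoic acid, fewer nutrients and less growth factor together, and the part of each was not tested. There were 4 groups of 2 libraries each: Stra8KO Veh, Stra8KO NRRA, Spo11KO Veh and Spo11KO NRRA. Stra8 is the retinoic acid-responsive gene needed for meiotic initiation, Spo11 encodes the enzyme behind programmed meiotic DNA breaks, and every library therefore carried one or the other knockout, since wild-type libraries are not analysed here. According to the study, libraries of a group were biological replicates made independently. The labels do not say whether they were separately derived cultures, and the p-values measure the spread between these libraries.

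Neurofilaments are the intermediate filaments of the axon. The light (Nefl) and medium (Nefm) chains and the heavy chain (Nefh) assemble together, and the amount of each sets the makeup of the filament. Fev (also called Pet-1) is an ETS family transcription factor known for switching on the genes of serotonin-producing neurons. Btbd17 encodes a protein with a BTB domain, a fold used for contacts between proteins.

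The upstream sequences of Fev and Btbd17 are shown, these being the members with an entry in the RefSeq promoter table used. With NRRA, Fev fell and Btbd17 rose in Stra8KO cultures, and both were low in Spo11KO cultures. The bases upstream of both the RefSeq start site and the GENCODE gene end are printed 5′ to 3′ on the minus strand of GRCm38 (mm10), with CpG dinucleotides in capitals. The Fev stretch is chr1:74885420-74885658 (239 bases), and the Btbd17 stretch is chr11:114795946-114796142 (197 bases).
Fev: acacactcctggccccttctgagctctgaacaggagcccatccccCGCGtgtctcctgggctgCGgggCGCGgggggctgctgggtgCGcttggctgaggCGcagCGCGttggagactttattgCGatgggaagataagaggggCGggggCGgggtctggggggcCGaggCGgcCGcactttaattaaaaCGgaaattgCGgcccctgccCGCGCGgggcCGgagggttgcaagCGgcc
Btbd17: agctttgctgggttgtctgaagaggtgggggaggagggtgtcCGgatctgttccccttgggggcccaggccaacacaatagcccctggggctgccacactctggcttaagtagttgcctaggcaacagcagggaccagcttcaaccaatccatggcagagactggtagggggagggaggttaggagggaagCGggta
The windows differed in base composition. Over the full 250 bases before the RefSeq start site, Fev held 22 CpG at 68.0% GC and Btbd17 held 3 CpG at 58.8% GC, beside medians of 6 CpG and 52.4% GC over 32851 mouse promoters of this length.

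Both strands of these 250 bases were searched for short motifs. The ETS core GGAA, found in 93.4% of all promoters, matched at 2 places in each gene, at -121 and -59 in Fev and at -200 and -64 in Btbd17, counted back from the start site. The GC box core GGGCGG (32.7% of promoters) matched in Fev at -109 and -103, and CNCCTCAG (6.42%) matched in Fev on the opposite strand at -156. Neither window matched TTCAGCACC (0.301% of promoters) or GGACAGCGC (0.304%), the left and right parts of the site of the neuronal gene repressor REST. Neither matched CCGGAAGT (2.88%), the retinoic acid receptor core AGGTCA (14.02%), DR5, its direct repeat (0.0091%), TATAAA (12.4%) or CANNTG (66.2%). A match is a string of letters, and its absence says only that these letters are not in this window.

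Library totals lay between 20960794 and 27038868 counts. Stra8, the gene targeted in the Stra8KO cultures, had 2 and 0 counts in the Stra8KO Veh libraries and 169 and 170 in the Stra8KO NRRA libraries. Where Stra8 was intact, it had 28 and 12 counts with Veh and 12604 and 16191 with NRRA. Libraries labelled Spo11KO did not have fewer Spo11 counts (72 and 75 counts with Veh, 148 and 127 with NRRA) than in those labelled Stra8KO (32 and 31 with Veh, 68 and 66 with NRRA), so whole-gene counts do not check that label.

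Nefm was the most abundant of the 5 genes under Veh. It had 2197 and 1917 counts with Veh against 430 and 408 with NRRA in Stra8KO. In Spo11KO libraries these were 5112 and 5075 with Veh against 107 and 122 with NRRA. The groups did not overlap, with Spo11KO Veh highest and Spo11KO NRRA lowest. As CPM (counts scaled to library size by TMM), Stra8KO cultures went from 97.4 ± 1.22 (SD, n = 2) to 19.8 ± 1.36 (SD, n = 2) with NRRA. Spo11KO cultures went from 218 ± 3.92 (SD, n = 2) to 4.15 ± 0.0238 (SD, n = 2). This last SD is far below what counting alone gives at 107 and 122 counts, and it is no measure of precision.

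Nefl, which lies beside Nefm on chromosome 14, had 143 and 129 counts with Veh against 23 and 36 with NRRA in Stra8KO. For Spo11KO the counts were 152 and 134 with Veh against 27 and 21 with NRRA. The Veh libraries of both genotypes overlapped in CPM, and all NRRA libraries lay below them. Its level went from 6.45 ± 0.0709 to 1.39 ± 0.390 CPM (SD, n = 2) in Stra8KO and from 6.12 ± 0.403 to 0.879 ± 0.230 CPM (SD, n = 2) in Spo11KO. The SD of the Stra8KO Veh group is likewise far below counting error and no measure of precision.

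Nefh, on chromosome 11, moved the other way. It had 98 and 107 counts with Veh against 177 and 164 with NRRA in Stra8KO. The Spo11KO libraries held 245 and 231 with Veh against 502 and 542 with NRRA. In each genotype both NRRA libraries lay above both Veh libraries, and the Spo11KO libraries lay above the Stra8KO libraries under either treatment. Its level went from 4.89 ± 0.711 to 8.06 ± 0.688 CPM (SD, n = 2) in Stra8KO and from 10.2 ± 0.188 to 18.9 ± 0.621 CPM (SD, n = 2) in Spo11KO.

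Fev, on chromosome 1, had 112 and 83 counts with Veh against 21 and 22 with NRRA in Stra8KO. In the other genotype, Spo11KO, it had 346 and 321 with Veh against 8 and 9 with NRRA. The order of its groups was that of Nefm, again without overlap. Its level went from 4.59 ± 0.587 to 1.01 ± 0.00131 CPM (SD, n = 2) in Stra8KO and from 14.3 ± 0.427 to 0.308 ± 0.00115 CPM (SD, n = 2) in Spo11KO. The SDs of both NRRA groups are far below what counting alone gives at these counts, and they are no measure of precision.

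Btbd17, on chromosome 11, had 37 and 21 counts with Veh against 124 and 104 with NRRA in Stra8KO. The counts in Spo11KO were 68 and 42 with Veh against 0 and 2 with NRRA. It was the member whose NRRA libraries moved in opposite directions in the genotypes, above Veh in Stra8KO and below Veh in Spo11KO. In Stra8KO its level went from 1.36 ± 0.422 to 5.39 ± 0.838 CPM (SD, n = 2), and in Spo11KO Veh it was 2.35 ± 0.733 CPM (SD, n = 2).

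**Figure D1:**
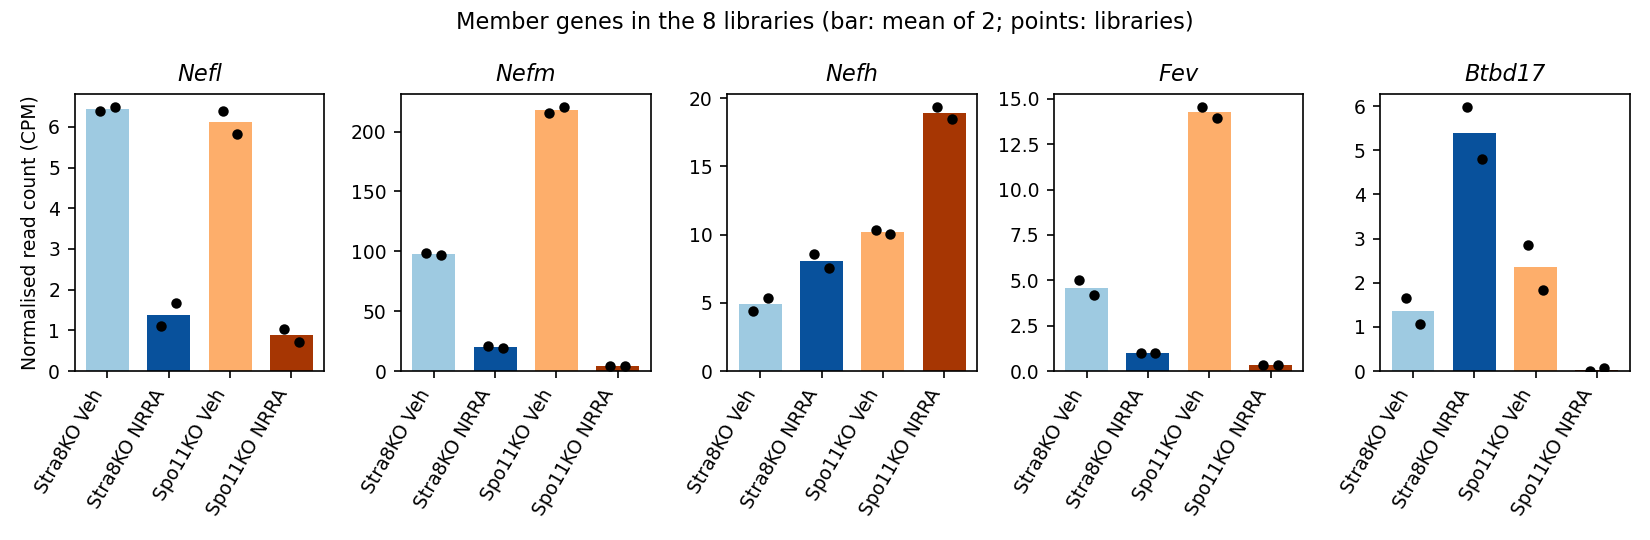
Normalised read counts (CPM) of the 5 genes in the 8 libraries, with a linear axis of its own for each gene; bars are means of 2 libraries and points are libraries. Nefl, Nefm and Fev were lower with NRRA in both genotypes, Nefh was higher in both, and Btbd17 was higher with NRRA in Stra8KO (5.39 CPM) while the Spo11KO NRRA libraries held 0 and 2 counts.

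Divided by exon length, which allows levels of different genes to be compared, the order of the members changed with NRRA. In Spo11KO Veh, Nefm stood at 37.7 CPM per kb, rank 1274 of 20566 tested genes with a length, followed by Fev at 8.82, Nefh at 2.55, Nefl at 1.81 and Btbd17 at 0.736 CPM per kb. In Spo11KO NRRA, Nefh was first at 4.74 CPM per kb, and Nefm stood at 0.717, Nefl at 0.260, Fev at 0.190 and Btbd17 at 0.0107 CPM per kb. In Stra8KO Veh the order was Nefm (16.8 CPM per kb), Fev (2.84), Nefl (1.91), Nefh (1.22) and Btbd17 (0.426). In Stra8KO NRRA, Nefm remained first at 3.42 CPM per kb, ahead of Nefh (2.02), Btbd17 (1.69), Fev (0.627) and Nefl (0.410). Among the neurofilament chains, the heavy chain thus had the lowest mean level per length in Stra8KO Veh and the highest in Spo11KO NRRA. The lengths of Nefl and Nefm take in 1108 bases exonic in both genes, and how reads there were counted is not given. Their levels per kb, and their places in this order, are uncertain to that extent.

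The NRRA effect in Stra8KO cultures asks whether the genes also responded where STRA8 was missing. Its libraries are not those of the Spo11KO fall that chose the genes. All 5 members passed an adjusted p of 0.05 in edgeR's quasi-likelihood test (Benjamini-Hochberg adjustment over all tested genes), 3 lower and 2 higher. In this contrast 41.9% of tested genes passed, 21.6% higher and 20.2% lower, so a call as such was common. A fall of more than 2-fold was less common: it was called for 3.57% of tested genes and for the 3 members that fell. The members were chosen for a fall under the same treatment in Spo11KO, with earlier results of these data known. The share over all genes therefore does not say how unusual their fall was.

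In Stra8KO, Nefm fell by 2.30 on the log2 scale (SE 0.061, adjusted p = 2.13e-34), which is 4.92-fold. Nefl fell by 2.21 (SE 0.22, adjusted p = 3.91e-12) or 4.62-fold, and Fev fell by 2.18 (SE 0.23, adjusted p = 3.53e-11) or 4.53-fold. These 3 genes ranked 162, 177 and 181 from the lowest among the 20588 log2 fold changes. Btbd17 rose by 1.97 on the log2 scale (SE 0.26, adjusted p = 7.56e-09), 3.92-fold, and Nefh rose by 0.73 (SE 0.14, adjusted p = 3.64e-05), 1.65-fold.

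In Spo11KO cultures, where the fall chose the members, 49.9% of tested genes were called, 25.5% lower and 24.5% higher. Nefm had a log2 fold change of -5.71 (SE 0.071), 52.5-fold, and ranked 9 from the lowest of all tested genes. Fev had -5.51 (SE 0.23), 45.6-fold, and ranked 10. For Nefl it was -2.81 (SE 0.23), 6.99-fold, and for Nefh it was 0.89 (SE 0.11), 1.86-fold higher. Nefl ranked 172 from the lowest, and Nefh was the member that did not fall. For Btbd17, 110 counts with Veh stood against 2 with NRRA, a 65.0-fold ratio of CPM with an exact 95% interval of 17.6 to 543 for counting error only.

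The genotypes differed in how far these genes moved, which was not tested for the members because the Spo11KO values chose them. The Stra8KO log2 fold change minus the Spo11KO one was 3.41 (SE 0.11) for Nefm, 3.33 (SE 0.42) for Fev, 0.60 (SE 0.35) for Nefl and -0.17 (SE 0.18) for Nefh. Nefm and Fev thus stood 10.7-fold and 10.1-fold apart between the genotypes' responses, against 1.51-fold for Nefl and 1.12-fold for Nefh. Btbd17 had opposite signs, and after NRRA its 228 counts in Stra8KO against 2 in Spo11KO gave a 149-fold ratio of CPM (exact 95% interval 40.7 to 1234, counting error only).

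**Figure D2:**
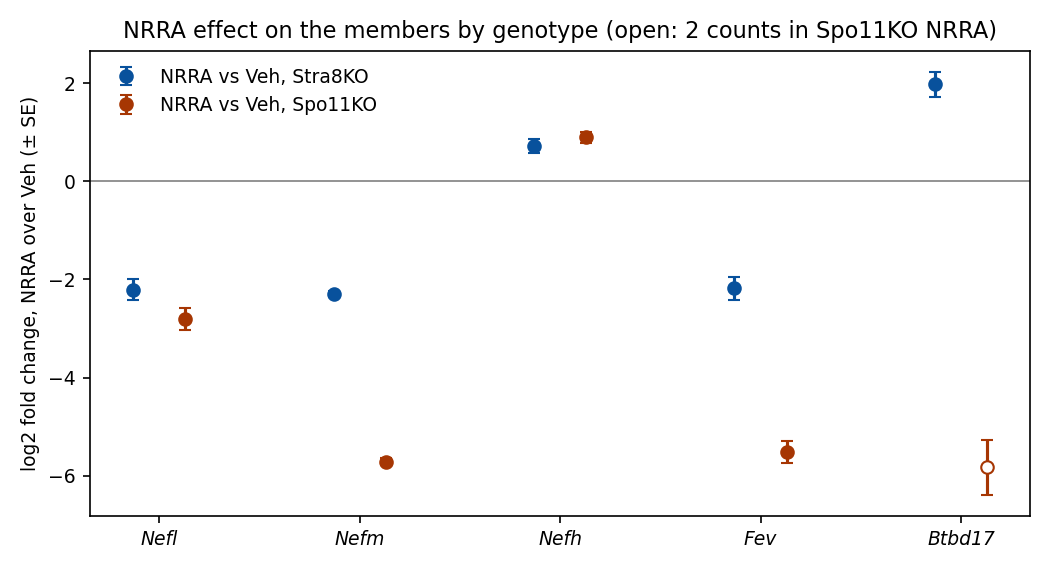
log2 fold change of NRRA over Veh for each gene in Stra8KO (blue) and Spo11KO (brown), with standard errors from the edgeR fit; the open point is Btbd17 in Spo11KO, which rests on 2 counts with NRRA. Nefm and Fev lie near -2 in Stra8KO and below -5 in Spo11KO, Nefl lies between -2 and -3 in both, and Nefh lies above 0 in both.

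Part of the spread between genotypes was already there under Veh. Stra8KO minus Spo11KO was -1.16 (SE 0.047) for Nefm, -1.63 (SE 0.14) for Fev, -1.07 (SE 0.14) for Nefh, -0.78 (SE 0.29) for Btbd17 and 0.07 (SE 0.17) for Nefl on the log2 scale, the last within its standard error. After NRRA the sign for Nefm and Fev had turned, at 2.25 (SE 0.097) and 1.70 (SE 0.39), while Nefh stayed at -1.23 (SE 0.11). Nefl was at 0.67 (SE 0.30), a value that lay between 0.35 (without Stra8KO NRRA replicate 2) and 0.95 (without Spo11KO NRRA replicate 1) when 1 library was left out.

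The cultures differed in summed levels of germ and feeder cell marker RNA, and in bulk RNA fewer cells of a type cannot be told apart from less RNA per cell. The summed level of 8 pan-germ cell markers was 695 to 699 CPM with Veh and 821 to 867 with NRRA in Stra8KO, against 1412 to 1462 with Veh and 1564 to 1623 with NRRA in Spo11KO. It was thus 2.06-fold higher in Spo11KO than in Stra8KO under Veh and went up with NRRA, by 1.21-fold in Stra8KO and 1.11-fold in Spo11KO. The sum of 16 fibroblast feeder markers was 27672 to 28268 CPM with Veh and 46569.7 to 47299 with NRRA in Stra8KO, against 14562 to 14696 with Veh and 23839 to 24392 with NRRA in Spo11KO. Of these 16 markers, 11 were called higher with NRRA and 3 lower in Stra8KO, and 12 higher and 4 lower in Spo11KO. The sum is weighted to its most abundant genes and does not stand for every marker.

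Set against the pan-germ sum, the Veh difference narrowed for some members. The Spo11KO to Stra8KO ratio under Veh was 1.09 for Nefm, 1.01 for Nefh, 0.842 for Btbd17 and 1.51 for Fev per unit of pan-germ CPM, and 0.461 for Nefl. The NRRA to Veh ratio in Stra8KO on this scale was 0.168 for Nefm, 0.179 for Nefl and 0.182 for Fev, against 1.36 for Nefh and 3.27 for Btbd17. The part of cell makeup in these differences was not tested further.

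Nefl and Nefm share sequence in the annotation. In GENCODE M21 (mm10), Nefl runs on the plus strand at chr14:68083863-68089095 and Nefm on the minus strand at chr14:68082590-68124846, both protein coding. The transcript Nefm-201 starts at the same place as Nefm-202 but ends 35.42 kb short of the start of Nefl. The last exon of Nefm-202 (2381 bases) runs back across the first exon of Nefl, so that 1108 bases are exonic in both genes on opposite strands, 32.8% of the exon length of Nefl. Whether counting used strand is not given, so reads from this stretch cannot be assigned to one gene with certainty and the Nefl counts are uncertain to that extent. The ratio of Nefm to Nefl counts was not constant: in Stra8KO it lay from 14.9 to 15.4 with Veh and from 11.3 to 18.7 with NRRA, and in Spo11KO from 33.6 to 37.9 with Veh and from 3.96 to 5.81 with NRRA. No 50-base stretch of Nefh, Fev or Btbd17 occurred in a transcript of another gene.

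**Figure D3:**
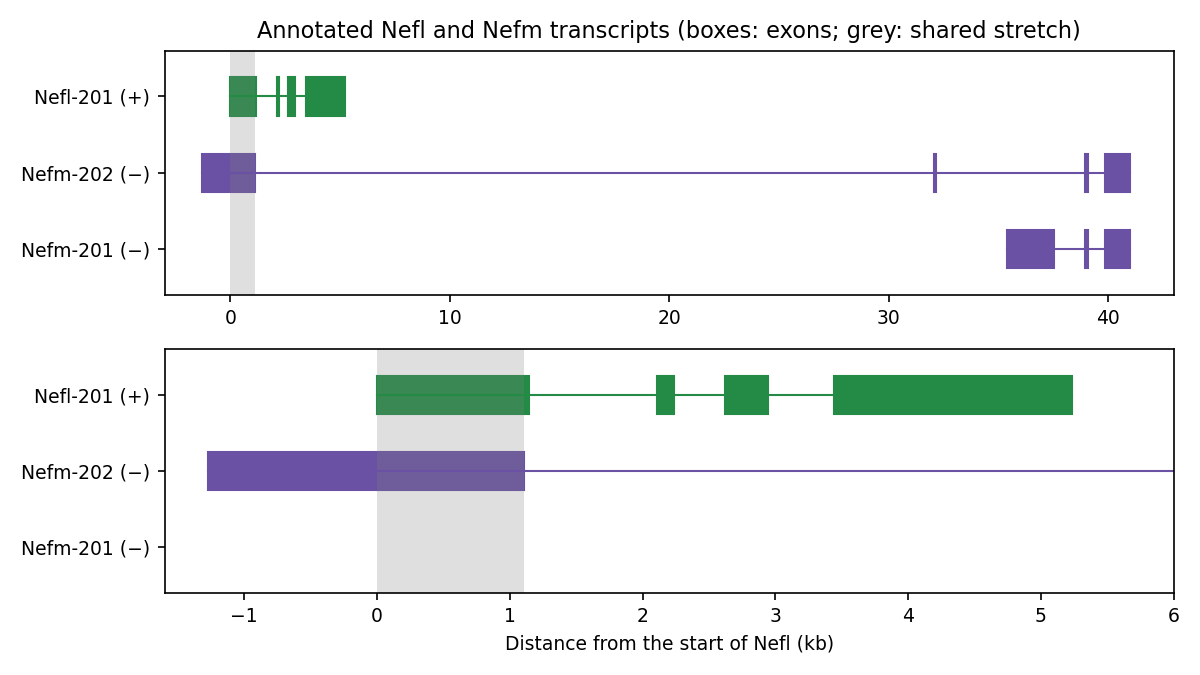
Exons (boxes) of the annotated Nefl and Nefm transcripts by distance from the start of Nefl in kb, whole locus above and the Nefl end enlarged below. The grey band marks the 1108 bases that are exonic in Nefl and in Nefm-202 on opposite strands, and Nefm-201 ends 35.42 kb from the start of Nefl, outside it.

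The other intermediate filament genes did not share one direction. Of 10 tested of 13, 3 were called higher and 6 lower with NRRA in Stra8KO (median log2 -0.26), and 5 higher and 3 lower in Spo11KO (median 0.27), beside medians of 0.01 over all tested genes in both contrasts. Over all tested genes, 21.6% were called higher and 20.2% lower in Stra8KO, and 24.5% higher and 25.5% lower in Spo11KO. These shares are the background for the counts of every list that follows. Ina, the neuronal intermediate filament alpha-internexin and the closest relative of the neurofilament chains listed, fell in both, at -0.55 (SE 0.14, edgeR adjusted p = 0.00157) in Stra8KO and -1.06 (SE 0.11, edgeR adjusted p = 2.12e-11) in Spo11KO. Vim, the filament of mesenchymal cells, fell (-0.82 and -0.77), Lmna, the nuclear A-type lamin, fell (-1.26 and -0.94), and Sync rose by 1.08 and 0.55 on the log2 scale. Prph, the peripheral neuron filament, had 2 to 8 counts a library and was not tested.

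Genes whose proteins modify, carry or clear neurofilaments were called in both directions, more often lower. In Stra8KO 2 of 16 were called higher and 9 lower, beside 21.6% and 20.2% of all tested genes. In Spo11KO 3 were called higher and 7 lower, beside 24.5% and 25.5%. The medians were -0.12 and -0.04. The largest change was in Cdk5r1, the p35 activator of the neurofilament kinase CDK5, which rose by 0.81 (SE 0.22, edgeR adjusted p = 0.00267) in Stra8KO and 1.29 (SE 0.21, edgeR adjusted p = 6.86e-07) in Spo11KO. Hspb1, a small heat shock protein that binds filaments, fell in both (-0.49 and -0.86).

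Other neuronal genes were called in both directions. Of 24 tested pan-neuronal genes of 30, 8 were called higher and 7 lower in Stra8KO (median 0.26), and 9 higher and 7 lower in Spo11KO (median 0.25). Elavl3, a neuronal RNA-binding protein, rose by 1.57 (SE 0.28, edgeR adjusted p = 5.41e-06) in Stra8KO and 2.87 (SE 0.23, edgeR adjusted p = 2.87e-15) in Spo11KO. Syt1, the synaptic vesicle calcium sensor, rose by 2.05 and 1.09, and Map2, a dendritic microtubule protein, rose by 2.10 in Spo11KO with 0.36 (edgeR adjusted p = 0.0827) in Stra8KO. A list of 20 proneural factors also takes in their antagonists of the Hes and Id families. Of the 10 tested, 4 were called higher and 0 lower in Stra8KO, and 4 higher and 1 lower in Spo11KO. Those higher in Stra8KO were Neurog3 and the antagonists Hes1, Id2 and Id3. Those higher in Spo11KO were Pou4f1, Myt1l and the antagonists Hes5 and Id2, while Id3 was lower. Neurog1, Neurog2, Neurod1, Neurod2, Neurod4, Atoh1 and Nhlh1 had at most 3 counts in every library. Pou4f1 rose by 1.504 in Spo11KO, and Hes5, one of the antagonists, rose there by 1.38.

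The serotonergic genes, a setting in which Fev is known to act, were also mixed. Of 15 tested of 22, 6 were called higher and 2 lower in Stra8KO, and 8 higher and 3 lower in Spo11KO. Gch1, which makes the cofactor for serotonin synthesis, fell in both, at -2.75 (SE 0.077, edgeR adjusted p = 2.76e-33) and -1.84 (SE 0.083, edgeR adjusted p = 1.28e-24). Tph1, the peripheral tryptophan hydroxylase, rose by 2.29 and 1.36, while Tph2, the neuronal form, had 0 to 6 counts a library. Foxa2, a forkhead factor, fell in Stra8KO (-1.07) and in Spo11KO (-3.88), and the difference was called (2.81, edgeR adjusted p = 8.59e-15).

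Among the other ETS family genes, 6 of 20 tested were called higher and 5 lower in Stra8KO, and 8 higher and 7 lower in Spo11KO. Etv4 and Etv5, targets of GDNF signalling in spermatogonial stem cells, fell in both genotypes. Their log2 fold changes were -1.17 and -0.53 in Stra8KO and -3.11 and -3.34 in Spo11KO. GDNF was itself diluted in the NRRA medium, and its part in these falls was not tested. Etv1 fell in both (log2 fold changes of -3.04, SE 0.10, and -2.91, SE 0.12), with a difference between genotypes of -0.13 (SE 0.18, edgeR adjusted p = 0.671). Erg, one of the family members most like Fev in its DNA-binding domain, rose by 2.82 and 2.61. Of 15 other BTB domain genes, 4 were called higher and 4 lower in Stra8KO, and 7 higher and 3 lower in Spo11KO. Lgals3bp, a secreted protein with a BTB domain, rose by 0.83 and 0.85.

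Of 13 genes of the REST repressor complex and its regulators, 4 were called higher and 3 lower in Stra8KO, and 7 higher and 2 lower in Spo11KO. Rest itself fell in both, at -0.12 (SE 0.043, edgeR adjusted p = 0.0192) in Stra8KO and -0.59 (SE 0.041, edgeR adjusted p = 2.54e-17) in Spo11KO. Ctdsp1, a phosphatase that stabilises REST, fell by 0.70 in Spo11KO, Ctdsp2 rose by 0.81 and 0.30, and Rcor3 rose by 0.59 and 0.55.

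**Figure D4:**
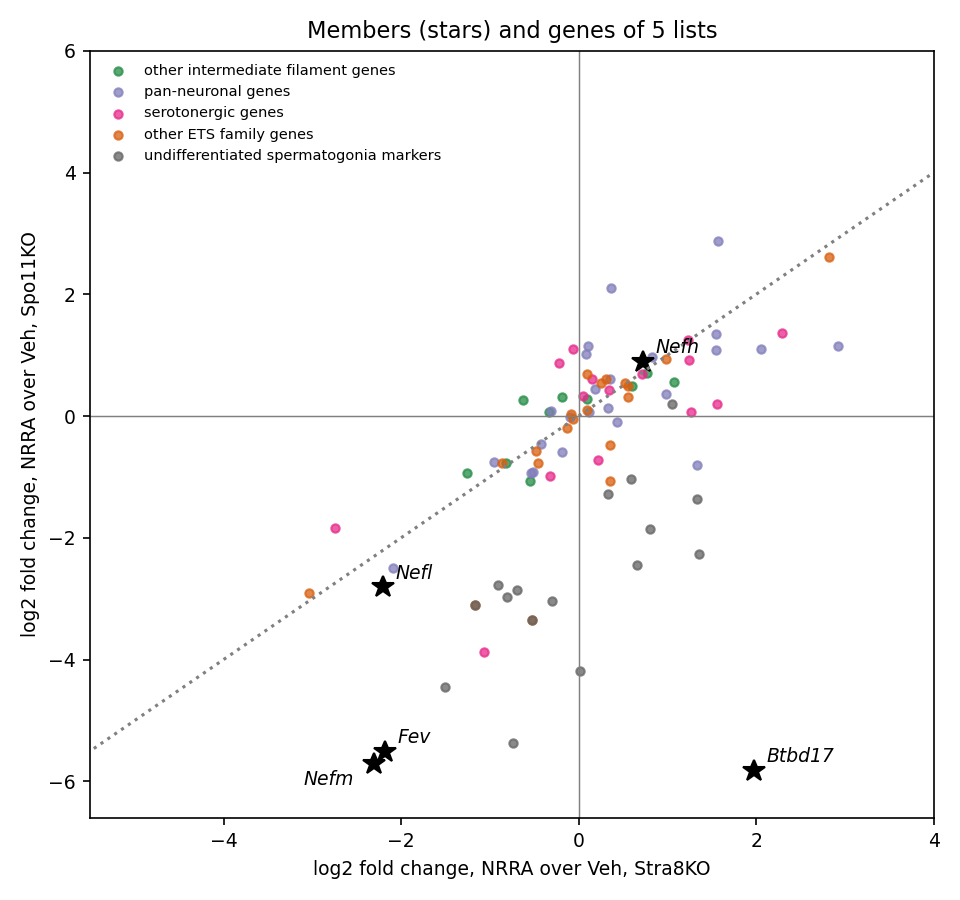
log2 fold change of NRRA over Veh in Stra8KO (x axis) and Spo11KO (y axis) for the members (stars) and the tested genes of 5 lists; the dotted line marks equal change, and Etv4 and Etv5 belong to the ETS and the undifferentiated lists. Nefl and Nefh lie close to the line, Nefm and Fev lie below it with most undifferentiated spermatogonia markers, and Btbd17 (1.97 and -5.83, the latter resting on 2 counts) lies at the lower right.

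Markers of undifferentiated spermatogonia fell mainly in Spo11KO. In Stra8KO 7 of 16 were called higher and 7 lower (median -0.15, from -1.5005 to 1.35), and in Spo11KO 1 higher and 15 lower (median -2.81, from -5.36 to 0.20). The difference between genotypes was called for 16 of 16, all with a higher value in Stra8KO, where 25.1% of all tested genes were called, 14.8% higher and 10.3% lower. Their summed level was 787 to 793 CPM with Veh and 793 to 796 with NRRA in Stra8KO, against 1678 to 1714 with Veh and 530.3 to 535 with NRRA in Spo11KO. Lhx1, a stem cell transcription factor, fell (-1.5005 and -4.45), T (brachyury) fell (-0.74 and -5.36), and Pax7 rose by 1.35 in Stra8KO and fell by 2.26 in Spo11KO. In Stra8KO the falls of Nefm, Nefl and Fev, each over 2 on the log2 scale, were deeper than that of any of these 16 markers.

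Cells of neural origin could also be present in testis cultures. Of 10 Schwann and neural crest markers, 1 was called higher and 5 lower in Stra8KO, and 1 higher and 4 lower in Spo11KO. Over all tested genes 20.2% were called lower in Stra8KO and 25.5% in Spo11KO. Their summed level was 104 to 107 CPM in Stra8KO Veh, 327 to 332 in Stra8KO NRRA, 107 CPM in each Spo11KO Veh library and 195 to 196 in Spo11KO NRRA. The direction of this sum rested on Pmp22, which fibroblasts also express and which rose by 2.56 and 2.27. Without Pmp22, a choice made after seeing the data, the other 9 markers summed to 54.7 to 56.7 CPM with Veh and 34.1 to 36.2 with NRRA in Stra8KO, and to 77.6 to 79.2 with Veh and 56.3 to 58.0 with NRRA in Spo11KO. Ngfr fell in both (-0.90 and -0.92). The defining marker Sox10 had 72 and 59 counts with Veh against 31 and 34 with NRRA in Stra8KO. Spo11KO libraries had 44 and 39 with Veh against 46 and 38 with NRRA. The part of such cells in the members' levels was not tested. Of 10 astrocyte and oligodendrocyte markers 5 were tested, with 3 called higher and 1 lower in each genotype.

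Over the 8 libraries, Nefm and Fev followed each other most closely (Pearson r = 0.99 of log2 CPM), and Nefl followed both (0.94 with Nefm, 0.93 with Fev). Nefh ran against all of them (-0.64 with Nefm), and Btbd17 was in between (0.63 with Nefm). These points are 4 groups of 2 libraries, so the values describe group differences and carry no test. They include the Spo11KO libraries that chose the members, so likeness among members that fell there is in part given by the choice. The same holds for their likeness to other genes that fell there. Among 12977 genes whose log2 CPM averaged 1 or more, those most like Nefm were Brd2 (r = 0.999), Etv4 (0.997), Mpzl2 (0.997), C1qbp (0.997) and Slc38a1 (0.997). Those most like Fev were Notch1 (0.999), Mapk11 (0.999), G3bp1 (0.998), Elfn1 (0.998) and Tanc1 (0.998).

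For Nefl the nearest profiles were Ctbp2 (0.992), Mapk8ip3 (0.992), Acsbg1 (0.991), Hoxc12 (0.991) and Hoxc11 (0.990), the last pair from the HoxC cluster. For Nefh they were Enox2 (0.995), Wasf3 (0.995), Cacna1b (0.994), Xk (0.994) and Mlxipl (0.993). For Btbd17 they were Pitpnc1 (0.990), Ski (0.989), Chchd10 (0.989), Yipf2 (0.986) and Pecam1 (0.986). The mean profile of the members takes in Nefh, which ran against the others, so it stands for no single member. It was most like that of Egr2, Sdc4, Kcnc2, Bhlhe41, Gna12, Rrp9, Bcl6b, Tcl1, Larp1 and Prpsap1, with r from 0.992 to 0.997. Bcl6b is on the list of undifferentiated markers.

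Several genes next to Btbd17 on chromosome 11 were also higher with NRRA in Stra8KO and lower in Spo11KO. Btbd17 lies at chr11:114791217-114795945 on the minus strand. Of the 3 nearest tested genes on each side, 4 of 6 were called higher in Stra8KO (background 21.6%) and 4 of 6 lower in Spo11KO (background 25.5%). A positive difference between the genotypes was called for 4 of 6 (background 14.8%). Kif19a, a kinesin that ends 0.48 kb from Btbd17 and is read towards it, had 94 and 52 counts with Veh against 344 and 368 with NRRA in Stra8KO. In Spo11KO libraries these were 153 and 118 with Veh against 60 and 54 with NRRA. It rose by 2.28 (SE 0.16, edgeR adjusted p = 1.39e-17) in Stra8KO and fell by 1.49 (SE 0.19, edgeR adjusted p = 3.26e-09) in Spo11KO.

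Gprc5c, an orphan receptor 55.21 kb away, rose by 2.10 (SE 0.11, edgeR adjusted p = 3.86e-18) in Stra8KO and fell by 2.31 (SE 0.12, edgeR adjusted p = 5.19e-18) in Spo11KO. Cd300a, a leukocyte receptor 94.1 kb away with 3 to 25 counts a library, rose by 1.86 and fell by 1.54. Gpr142, between Btbd17 and Gprc5c, had 35 and 6 counts with Veh against 1 and 0 with NRRA in Spo11KO. Dnaic2, 33.33 kb away on the other side, rose in both, by 0.92 and 1.01. Ttyh2, 70.24 kb away on that side, went the other way: it fell in Stra8KO (-0.32, edgeR adjusted p = 1.66e-06), had 0.09 (edgeR adjusted p = 0.162) in Spo11KO, and its difference between genotypes was -0.40 (edgeR adjusted p = 2.25e-05). Since Kif19a and Btbd17 converge and strand use in counting is not given, reads running past the end of one gene cannot be told apart from the other.

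**Figure D5:**
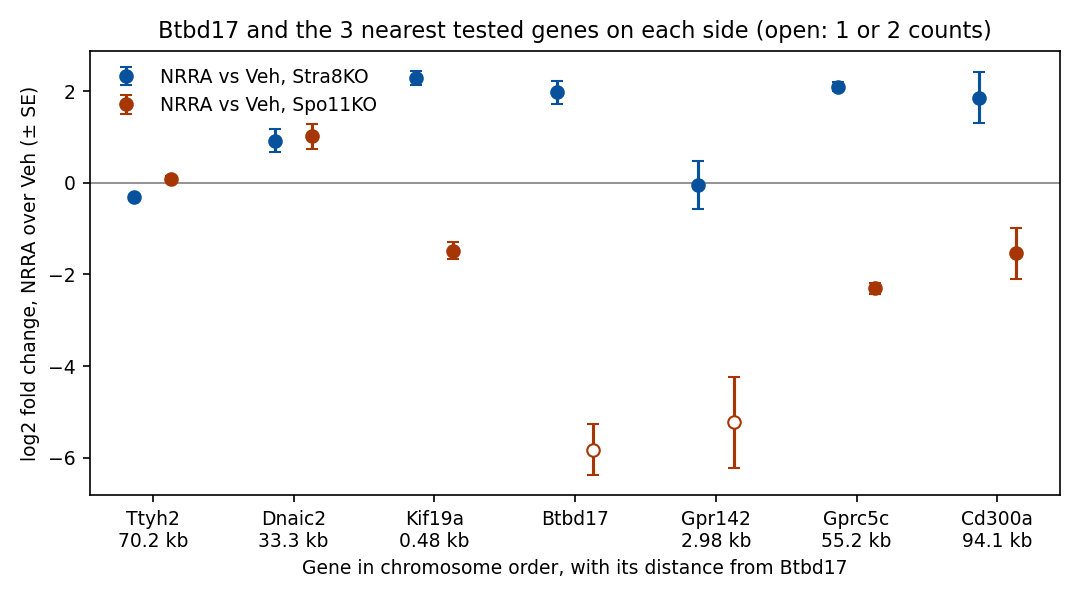
log2 fold change of NRRA over Veh, with standard errors, for Btbd17 and the 3 nearest tested genes on each side in chromosome order, Stra8KO in blue and Spo11KO in brown; open points rest on 1 or 2 counts with NRRA. Kif19a, Btbd17, Gprc5c and Cd300a lie above 0 in Stra8KO and below 0 in Spo11KO.

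Fewer neighbours of the other members were called. Of 5 genes around Nefl, apart from Nefm, 3 were called lower in each genotype (background 20.2% in Stra8KO and 25.5% in Spo11KO). A negative difference between the genotypes was called for 3 of these 5 (background 10.3%). For Nefm, apart from Nefl, these counts were 2 of 5, with neighbours partly the same. Dock5 fell (-1.20 in Stra8KO and -0.73 in Spo11KO) and Stc1, a secreted hormone 940.14 kb from Nefl, fell (-3.74 and -2.88). Of 6 genes around Nefh (chr11:4938754-4948064), 1 was called higher and 2 lower in Stra8KO and 2 higher in Spo11KO. Of 6 around Fev (chr1:74881509-74885419), 1 was called higher and 1 lower in Stra8KO and 2 lower in Spo11KO.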

How the data were processed

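Poly(A) RNA libraries of mouse spermatogonia cultures were sequenced. The submitters' processing notes name bcl2fastq, STAR 2.6.1c, featureCounts 1.6.4 and mm10, while the paper names another STAR version. The authors deposited raw counts for 55421 genes. Annotation release, strand setting and treatment of multiply mapped reads are not given in the sources used here, and the labels and methods name different library kits. Every row has a gene name, and 99.67% of IDs matched GENCODE M21.

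Counts were tested with edgeR 4.0.16 (R 4.3.3; TMM scaling, filterByExpr, robust quasi-likelihood, one model of 4 groups and 8 libraries, two-sided, Benjamini-Hochberg over 20588 genes, called at 0.05). Precision is limited by 2 libraries a group; the exact intervals given for ratios of low counts cover counting error only. The procedure was tested on simulated data. Alternatives were DESeq2 1.42.0, other scalings and filters, the 4 libraries of a genotype alone, a replicate block and leaving out each library. The members and the gene lists were chosen with earlier results of these data known. Besides members and the targeted genes, text names up to 2 called genes with the largest change per list and contrast (average log2 CPM at least 0), relatives of a member, the nearest profiles and the nearest 3 tested genes on each side. For some lists only part of these is named, and 1 gene the rule picked is not reported here. Promoter windows came from RefSeq (GRCm38.p6), in which Fev and Btbd17 were matched, 2 of the 5 members. Proteins were not analysed here.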

Additional observations from a re-analysis of the deposited data

Results flagged for a closer look

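Btbd17 was singled out because both NRRA libraries lay above both Veh libraries in Stra8KO (log2 fold change 1.97, SE 0.26) and below them in Spo11KO. The difference between the genotypes was not tested for this gene, because the fall in Spo11KO chose it.

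Some, not all, of the other list and neighbour genes described with their fold changes had an NRRA effect that differed between the genotypes. This was called by the interaction term of the edgeR quasi-likelihood fit, and those genes are listed here. Gpr142, with 1 count in the Spo11KO NRRA libraries, and genes named only for a profile like that of a member are not listed. Values are the Stra8KO log2 fold change minus the Spo11KO one, and the largest adjusted p among them was 0.0482, for Tph1. Next to Btbd17 the difference was 3.77 for Kif19a (SE 0.25), 4.40 for Gprc5c (SE 0.16) and 3.40 for Cd300a (SE 0.80), and it was -0.40 for Ttyh2 (SE 0.073). Among undifferentiated spermatogonia markers it was 3.62 for Pax7, 2.95 for Lhx1 and 4.62 for T, and the stem cell ETS factors Etv4 and Etv5 had 1.94 and 2.82. Foxa2 had 2.81 and Tph1 had 0.93, while Gch1 had -0.91. On the pan-neuronal and proneural lists it was -1.30 for Elavl3, -1.74 for Map2, -1.20 for Pou4f1 and -1.18 for Hes5. Among filament genes and their partners it was 0.52 for Ina, -0.32 for Lmna and 0.37 for Hspb1. In the REST complex it was 0.47 for Rest, 0.67 for Ctdsp1 and 0.52 for Ctdsp2. Near Nefl and Nefm it was -0.86 for Stc1 and -0.47 for Dock5, and Pmp22 among the Schwann and neural crest markers had 0.29. The pan-germ and feeder sums that differ between the genotypes stand with the results, and their part in these differences was not tested.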

How the results depend on the processing

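All 5 members kept their call and direction in Stra8KO under the 15 alternatives run, with a largest adjusted p of 0.00788 (Nefh). The replicate block also called 5 members. Same-numbered libraries did not deviate together (correlations from -0.027 to 0.056 over all tested genes). That gives no sign of pairing by the labels' numbers, but counting error weakens such correlations, so pairing is not excluded. The block fit moved no member value beyond the spread between libraries. With total counts the median of all genes shifted by -0.11 (Veh) and -0.21 (NRRA) in the genotype differences. Values were then -5.62 (Nefm), -5.42 (Fev) and 0.98 (Nefh) for NRRA in Spo11KO, -1.28 (Nefm) and -0.039 (Nefl) between genotypes in Veh, 2.05 (Nefm), -1.44 (Nefh) and 1.499 (Fev) in NRRA, and 3.32 for the Nefm difference of responses. With no filter on low counts the Spo11KO values were -5.67 (Nefm), -5.46 (Fev) and 0.94 (Nefh), and Fev between genotypes in NRRA was 1.65 (1.68 with DESeq2 size factors, 1.70 by the DESeq2 Wald test). Leaving out 1 library gave -5.74 to -5.71 (Nefm) and -5.55 to -5.48 (Fev) in Spo11KO and 3.21 to 3.47 for the Fev difference of responses; for Nefl it gave 0.35 to 0.95 between genotypes in NRRA and 0.27 to 0.87 for the difference, for the Nefh difference -0.32 to -0.018, and for Btbd17 between genotypes in Veh -1.15 to -0.42; for Btbd17, where Spo11KO NRRA replicate 2 holds both counts of that group, it gave -8.73 to -5.01 in Spo11KO, 6.19 to 9.91 between genotypes in NRRA and 6.97 to 10.69 for the difference. The cause of these moves was not tested. List counts in the NRRA contrasts moved by over 1.5 times in 29 of 960 values, by at most 3 genes, and in the difference of responses in 65 of 448, by at most 5 genes; the 16 undifferentiated markers called higher there stayed at 16 in every alternative run. Members with under 10 counts in a group (Fev, Btbd17) are limited by depth.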
